A study of Mus musculus with 2 samples.

Results

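The genes described here encode the conjugating enzymes of xenobiotic metabolism: cytosolic glutathione S-transferases (Gst), microsomal glutathione S-transferases (Mgst), UDP-glycosyltransferases (Ugt) and cytosolic sulfotransferases (Sult). They were chosen by gene symbol alone, as every gene whose name begins with Gst and a class letter, Mgst, Ugt or Sult followed by a number. The rule found 52 genes of 30941 named genes, represented by 53 probe sets. It reads no measured value, but it was set with earlier results of these data known. A gene with several probe sets was represented by the one highest on average over both arrays, which gave 19 cytosolic Gst, 3 Mgst, 12 Ugt and 18 Sult genes.

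RNA came from 2 mice aged 12 weeks, 1 per genotype, both of a mixed background backcrossed towards C57/B6, and each was hybridised to 1 Affymetrix array. The Atp4bCre; MIST1-LSL mouse carried a Cre recombinase driven in parietal cells by the Atp4b promoter and a MIST1 allele whose stop cassette Cre removes. The control mouse carried Atp4bCre alone, so the driver was present in both. The sample labels name the corpus of the stomach, while the series' design text speaks of whole stomachs.

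Glutathione transferases join reactive compounds to glutathione, UDP-glucuronosyltransferases add a sugar acid from UDP-glucuronate, and cytosolic sulfotransferases add sulfate from the donor PAPS. The products are more soluble and leave the cell through ABC transporters. In the gut lining these enzymes meet dietary compounds and products of lipid peroxidation, and several glutathione transferase genes are known targets of the oxidative stress factor NRF2, which binds the antioxidant response element.

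The 45 members with a promoter entry in RefSeq (GRCm38.p6) were searched for the core of that element, TGACNNNGC, on both strands of the window from 250 bases before to 50 bases after each start site. It was present in a window of 4 members, Gsta3, Gstm5, Gstm7 and Mgst1. Their windows are shown because NRF2 is the best known regulator of this gene group, with the match in capitals.
Gsta3 (chr1:21240335-21240634, plus strand): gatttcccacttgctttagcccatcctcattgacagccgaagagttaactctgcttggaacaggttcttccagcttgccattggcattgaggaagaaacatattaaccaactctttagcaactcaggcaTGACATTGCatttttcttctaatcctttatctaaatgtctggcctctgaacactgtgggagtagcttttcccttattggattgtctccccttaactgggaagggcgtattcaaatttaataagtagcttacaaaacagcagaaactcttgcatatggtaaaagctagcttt
Gstm5 (chr3:107895604-107895903, plus strand): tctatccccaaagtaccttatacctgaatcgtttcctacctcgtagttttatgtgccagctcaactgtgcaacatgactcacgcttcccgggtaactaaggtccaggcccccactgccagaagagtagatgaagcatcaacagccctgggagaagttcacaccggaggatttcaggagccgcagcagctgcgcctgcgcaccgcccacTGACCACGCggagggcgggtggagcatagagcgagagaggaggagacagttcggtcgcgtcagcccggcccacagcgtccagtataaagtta
Gstm7 (chr3:107931565-107931864, minus strand): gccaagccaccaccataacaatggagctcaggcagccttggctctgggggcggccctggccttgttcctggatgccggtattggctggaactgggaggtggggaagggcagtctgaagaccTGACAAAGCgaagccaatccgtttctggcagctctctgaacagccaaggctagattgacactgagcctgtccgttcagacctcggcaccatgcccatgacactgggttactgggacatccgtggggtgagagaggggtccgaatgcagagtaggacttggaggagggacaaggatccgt
Mgst1 (chr6:138140277-138140576, plus strand): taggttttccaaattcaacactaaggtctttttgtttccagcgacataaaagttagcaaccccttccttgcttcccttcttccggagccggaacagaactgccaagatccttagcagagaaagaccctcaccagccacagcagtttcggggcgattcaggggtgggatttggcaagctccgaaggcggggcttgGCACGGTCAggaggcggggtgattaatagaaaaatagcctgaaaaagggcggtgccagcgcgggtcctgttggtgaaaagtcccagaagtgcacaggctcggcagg
The match in Mgst1 lies on the opposite strand to the gene. The core was in 4 of 56 windows of the members (7.14%), against 12.4% of all 32851 windows. A match of these letters is no evidence of binding. The E-box CAGCTG, of the class bound by basic helix-loop-helix factors such as MIST1, was in 5 of 56 windows of the members (8.93%), against 16.3% of all windows. These were windows of Gstm5, Gstm6, Gstz1, Sult1e1 and Sult2b1. The E-box CATATG was in 1 of 56 windows of the members (1.79%), that of Gsta3, against 3.91% of all windows.

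No conjugating enzyme gene with a level above the floor on either array differed 2-fold between the stomachs. All levels are RMA values on the log2 scale, and all differences are MIST1-LSL minus control. Levels of different genes come from different probes and are not ranked against each other. The floor used here was 4.62, the median of all probe-set values, and 33 of the 52 members reached it on at least 1 array. Of these 33, none was 2-fold higher and none 2-fold lower in the MIST1-LSL stomach. Among all 17352 genes above the floor, the share that was 2-fold higher or more was 0.968% and the share 2-fold lower or more 0.473%, so a count of 0 among 33 genes does not set the members apart. Their differences ran from -0.77 to 0.59, with a median of 0.05, and all genes above the floor had a median of -0.03. The median size of the difference, without its sign, was 0.14 for the members and 0.19 for all genes above the floor. Above 0 were 20 of the 33 members (60.6%), against 44.9% of all genes above the floor. This excess was not seen at high levels: of members at or above 10 on both arrays, 4 of 10 were above 0 (40%), against 45.1% of all such genes. The share over all genes also depended on scaling. Of the 17352 genes above the floor, 7787 were above 0 as deposited, 8956 after median centring and 8541 after quantile normalization. Members above 0 numbered 20, 21 and 20 of 33 in the same order.

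A single array per genotype allows no test, and the differences have no replicate check. As a measure of probe behaviour within the arrays, the difference (MIST1-LSL minus control) was compared among probe sets of the same gene. Over 484 genes above the floor, that difference varied within a gene with an SD of 0.21, called the SD between probe sets below. It does not describe how far the levels of such probe sets lie apart. This SD holds no variation between mice, so a difference inside or outside it does not show whether the genotypes differ. Precision is limited by the number of arrays.

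**Figure D1:**
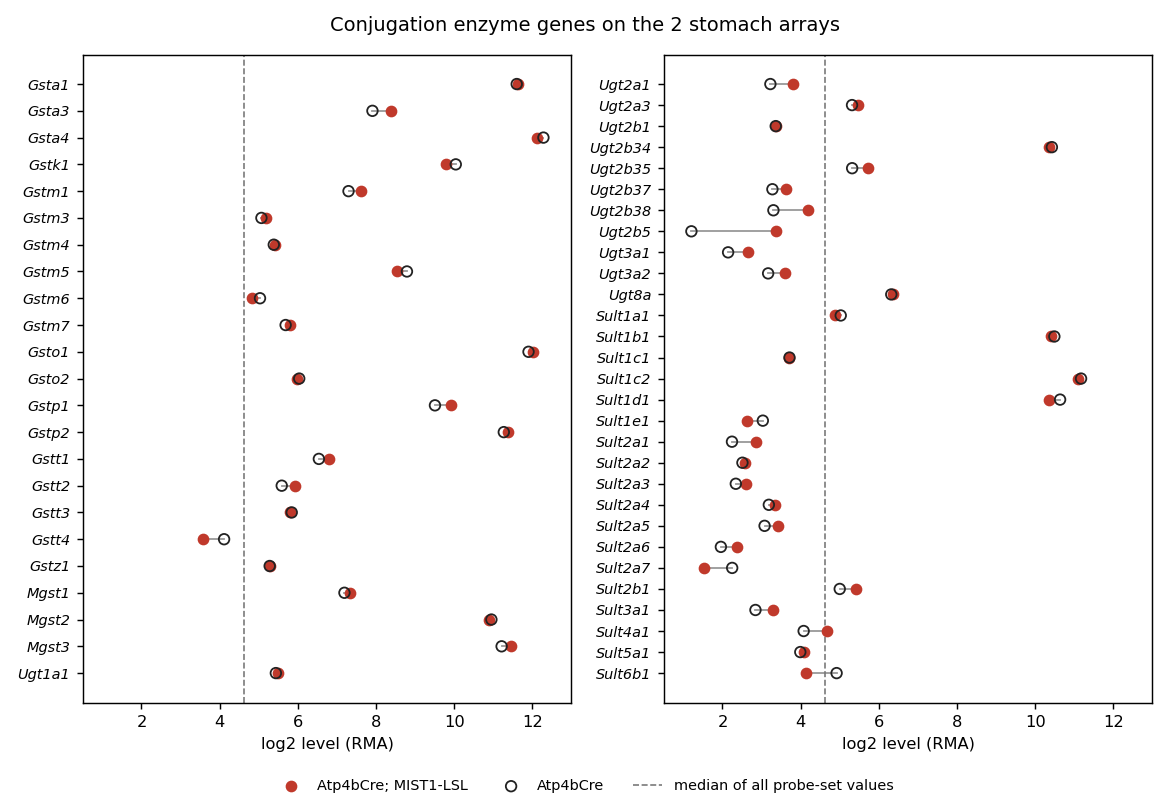
Log2 level (RMA) of each of the 52 conjugating enzyme genes on the Atp4bCre; MIST1-LSL array (filled red) and the Atp4bCre array (open black), with the floor of 4.62 as a dashed line. Both symbols lie close together for most genes, and the widest gap is that of Ugt2b5, which is below the floor on both arrays.

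The array context of these values was as follows. Bhlha15, the gene of MIST1, read 5.30 on the MIST1-LSL array and 5.26 on the control array. The proton pump gene Atp4b (12.11 on the MIST1-LSL array and 12.13 on the control array) and the chief cell zymogen gene Pgc (12.47 and 12.66 in the same order) were high on both, and the forestomach gene Sprr1a (11.85 and 11.94) was high as well, a transcript from outside the corpus. Of 7 parietal cell markers, 1 was 2-fold lower (Slc26a7, an anion transporter gene, at -2.49), and the median was -0.10. Of the 10 pancreatic acinar markers, 9 were at least 2-fold higher on the MIST1-LSL array, as were 7 of 8 smooth muscle markers, and the median of the 5 adipocyte markers above the floor was -0.87. In bulk tissue, fewer cells of a type and less RNA per cell cannot be told apart, and the part of tissue content in the differences below was not tested.

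Among the alpha class enzymes, Gsta4, which clears the lipid peroxidation product hydroxynonenal, read 12.13 on the MIST1-LSL array and 12.28 on the control array. Gsta1, measured by 8 probes, the fewest of any member, read 11.63 on the MIST1-LSL array and 11.60 on the control array. Both genes thus stayed within the SD between probe sets of 1 gene, with differences of -0.15 and 0.03. Gsta3, known in mouse for conjugating the activated form of aflatoxin, read 8.39 on the MIST1-LSL array and 7.91 on the control array. Its difference of 0.48 was the largest on the higher side among the glutathione transferases, a 1.39-fold level.

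The pi class genes Gstp1 and Gstp2 lie next to each other on chromosome 19 and have closely similar sequences. Gstp2 read 11.37 on the MIST1-LSL array and 11.27 on the control array. Gstp1, measured by 9 probes, read 9.93 on the MIST1-LSL array and 9.51 on the control array. The differences were 0.10 for Gstp2 and 0.42 for Gstp1, and with copies this similar the share of each in the signal is uncertain. Gsto1, an omega class enzyme with thioltransferase and dehydroascorbate reductase activity, read 12.03 on the MIST1-LSL array and 11.90 on the control array, while its neighbour Gsto2 read 5.99 and 6.04 in the same order. Both omega differences were smaller than that SD.

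The mu class forms a run of 6 neighbouring members on chromosome 3, all above the floor. Gstm1 read 7.61 on the MIST1-LSL array and 7.30 on the control array, a difference of 0.31. Gstm5 read 8.53 on the MIST1-LSL array and 8.79 on the control array, a difference of -0.27. Opposite signs thus stood in 1 run, and the other 4 genes, Gstm3, Gstm4, Gstm6 and Gstm7, differed by -0.20 to 0.12. The sequences of this class overlap strongly, so signal may be shared between copies. The 4 members whose promoter windows held the antioxidant element core (printed above) also went both ways, with 0.48 for Gsta3, 0.13 for Mgst1, 0.12 for Gstm7 and -0.27 for Gstm5.

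Among the theta class genes, neighbours on chromosome 10, Gstt2 read 5.93 on the MIST1-LSL array and 5.59 on the control array. Gstt1, which acts on small halogenated compounds, read 6.79 on the MIST1-LSL array and 6.54 on the control array. Gstt3 differed by -0.03, and Gstt4 was below the floor on both arrays (3.57 on the MIST1-LSL array and 4.11 on the control array). Gstk1, the kappa class enzyme of mitochondria and peroxisomes, read 9.78 on the MIST1-LSL array and 10.04 on the control array, a difference of -0.26. Gstz1, the maleylacetoacetate isomerase of tyrosine breakdown, read 5.29 on the MIST1-LSL array and 5.28 on the control array.

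The membrane-bound enzymes were all above the floor. Mgst3, a glutathione peroxidase of the MAPEG family, read 11.45 on the MIST1-LSL array and 11.21 on the control array, a difference of 0.24. Mgst2, which can make cysteinyl leukotrienes, read 10.88 on the MIST1-LSL array and 10.95 on the control array. Mgst1, of the endoplasmic reticulum and outer mitochondrial membrane, read 7.32 on the MIST1-LSL array and 7.19 on the control array. Over both glutathione transferase groups, 14 of 21 genes above the floor were above 0 (66.7%), against 44.9% of all genes above the floor. The median of the 21 was 0.10, and no difference exceeded 0.48 in size.

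**Figure D2:**
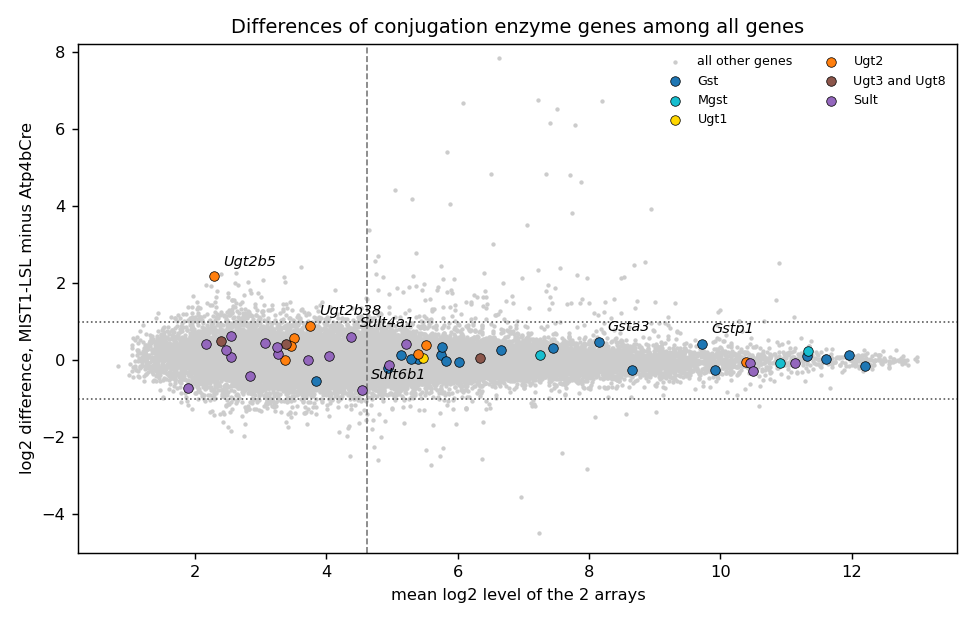
Log2 difference (MIST1-LSL minus Atp4bCre) of every named gene against its mean log2 level, with the conjugating enzyme genes coloured by family, dotted lines at a 2-fold difference and a dashed line at 4.62. Sult4a1 and Sult6b1 lie left of the dashed line because their mean is below it, although their higher level is above the floor. All members above the floor lie between the dotted lines, and Ugt2b5 at 2.17 is the only member beyond them.

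Of the 12 Ugt genes, 5 were above the floor. Ugt2b34 read 10.36 on the MIST1-LSL array and 10.43 on the control array. Ugt2b35 read 5.71 on the MIST1-LSL array and 5.32 on the control array, and its difference of 0.40 was the largest of the 5. Ugt2a3 read 5.47 on the MIST1-LSL array and 5.31 on the control array. The probe set of Ugt1a1, the bilirubin-conjugating enzyme, read 5.50 on the MIST1-LSL array and 5.44 on the control array. The Ugt1a enzymes share all exons but the first, and which exons its 47 probes cover is not given in the sources used here, so the value may stand for the locus. Ugt8a, which makes the galactosylceramide of myelin rather than a glucuronide, read 6.36 on the MIST1-LSL array and 6.32 on the control array. Apart from Ugt2b35, the differences of these 5 genes were smaller than the SD between probe sets of a gene.

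The remaining 7 Ugt genes were below the floor on both arrays, where no detection call separates signal from background. Ugt2b5 read 3.38 on the MIST1-LSL array and 1.20 on the control array, a difference of 2.17 from 9 probes. It was the only one of all 52 members past a 2-fold difference, and 1.4% of all genes below the floor were 2-fold higher or more as well. Ugt2b38 read 4.19 on the MIST1-LSL array and 3.30 on the control array, a difference of 0.89. Ugt2a1, an enzyme of the olfactory lining, differed by 0.57, Ugt3a1 by 0.50, Ugt3a2 by 0.43 and Ugt2b37 by 0.36. Ugt2b1 was listed at 3.36 on both arrays. None of the 7 read lower on the MIST1-LSL array and 6 read higher. Of all 13589 genes below the floor, 6254 read lower and 6422 higher. The median of the 7 was 0.50, against 0.00 for all genes below the floor. Among all 19 members below the floor, 14 were above 0, so the direction was not particular to the Ugt genes. Genes of the Ugt2b group resemble each other closely, so their low signals are not independent measurements.

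Of the 18 Sult genes, 7 were above the floor, with a median of -0.08. Above 0 were 2 of these 7 (28.6%), against 44.9% of all genes above the floor. Sult1c2 read 11.09 on the MIST1-LSL array and 11.17 on the control array, whereas its neighbour Sult1c1 was listed at 3.71 on both. Sult1b1, which acts on thyroid hormones and phenols, read 10.41 on the MIST1-LSL array and 10.49 on the control array. Sult1d1, which sulfates catecholamines in mouse, read 10.36 on the MIST1-LSL array and 10.64 on the control array. Sult1d1 at -0.28 was the lowest of these well expressed enzymes, and Sult1c2 and Sult1b1 both differed by -0.08. Sult1a1, the phenol sulfotransferase, read 4.89 on the MIST1-LSL array and 5.03 on the control array, close to the floor. Sult2b1, a cholesterol and pregnenolone sulfotransferase of squamous epithelia, read 5.43 on the MIST1-LSL array, 0.43 above its level on the control array. That difference stood beside a median of 0.20 over the 6 forestomach markers, of which 4 were above 0. Their summed intensity went the other way, at 4770 on the MIST1-LSL array and 4848 on the control array. The part of forestomach content in the difference of Sult2b1 was not tested.

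The remaining Sult genes above the floor, Sult6b1 and Sult4a1, were the only members of the 33 whose deposited levels lay past 1.5-fold, 1 in each direction and Sult4a1 only just. Each reached the floor on 1 array only, so neither call holds against the floor: with levels below it raised to 4.62, Sult4a1 differed by 0.04 and Sult6b1 by -0.30. Among all genes above the floor, 3.49% lay past 1.5-fold on the higher side and 3.33% on the lower side, by deposited levels and without raising any to the floor. Sult4a1, a sulfotransferase of neurons, read 4.66 on the MIST1-LSL array, just above the floor, and 4.08 on the control array, a difference of 0.59. The 5 nerve and glia markers above the floor had a median difference of 0.68 with 4 of 5 above 0, and the summed intensity of the 6 listed markers was 264 on the MIST1-LSL array and 163 on the control array. The part of nerve tissue in the difference of Sult4a1 was not tested. Just outside the floor lay Ugt2b38, whose higher level was 4.19.

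Sult6b1 was the only member with more than 1 probe set, and they went opposite ways. The probe set used read 4.15 on the MIST1-LSL array and 4.92 on the control array, a difference of -0.77. The other, with 23 probes, read 3.22 on the MIST1-LSL array and 2.93 on the control array, a difference of 0.29. The direction of Sult6b1 therefore depends on the probe set chosen.

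The 11 Sult genes below the floor included Sult1e1, the oestrogen sulfotransferase, and the hydroxysteroid sulfotransferase genes Sult2a1 to Sult2a7, which form a run on chromosome 7. The 7 Sult2a genes read between 1.53 and 3.41 on the MIST1-LSL array and between 1.96 and 3.19 on the control array. Their differences ran from -0.71 for Sult2a7 to 0.61 for Sult2a1, all at levels below the floor. Sult1e1 read 2.63 on the MIST1-LSL array and 3.03 on the control array. The other members of this set, Sult1c1, Sult3a1 and Sult5a1, differed by 0.00, 0.45 and 0.10.

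The longest run of neighbouring members, 11 genes on chromosome 5 with no more than 2 other protein-coding genes between neighbours, holds the Ugt2 genes followed by Sult1b1, Sult1d1 and Sult1e1. In it, Ugt2b34, Ugt2b35, Ugt2a3, Sult1b1 and Sult1d1 were above the floor on both arrays, and Ugt2b1, Ugt2b5, Ugt2b37, Ugt2b38, Ugt2a1 and Sult1e1 below it on both. Genes above and below the floor were interspersed along the run, and no gene of it crossed the floor between the genotypes. The gene order is that of RefSeq for GRCm38.p6, and no coordinates from the arrays were used.

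**Figure D3:**
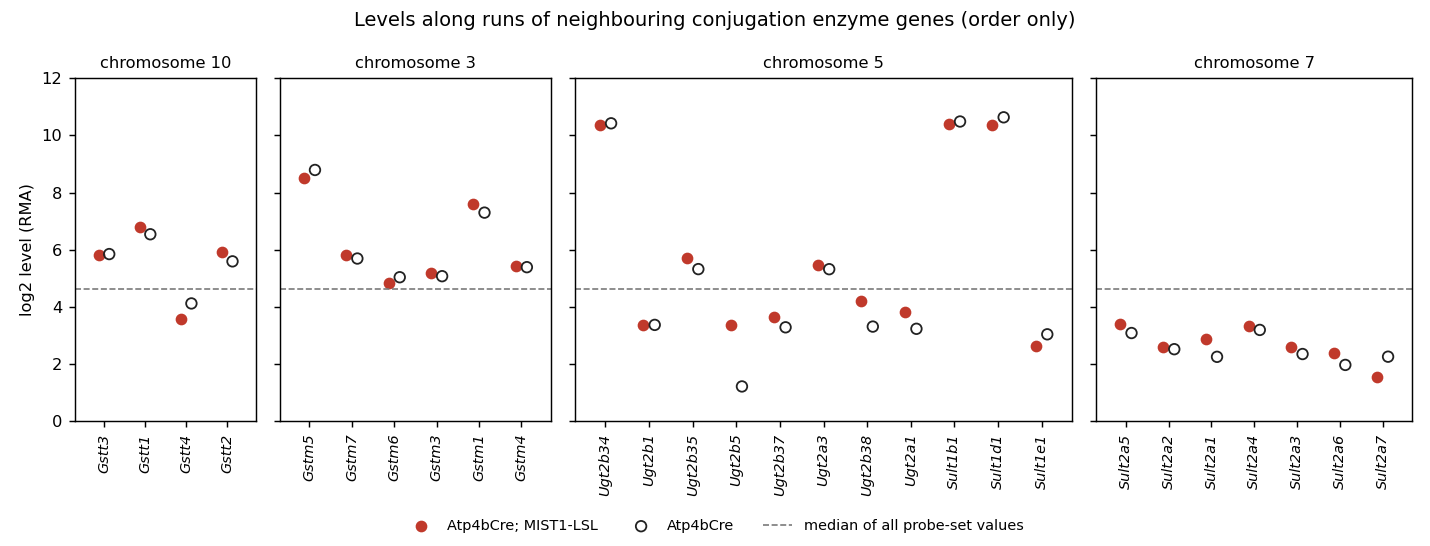
Log2 level (RMA) of members in the 4 longest runs of neighbouring genes, in chromosomal order, on the Atp4bCre; MIST1-LSL array (filled red, left of each pair) and the Atp4bCre array (open black), with the floor of 4.62 dashed. All 6 Gstm genes are above the floor, all 7 Sult2a genes are below it, and the chromosome 5 run holds 5 genes above and 6 below.

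The genes that supply glutathione also differed little. Slc7a11, the cystine transporter that feeds glutathione synthesis, read 5.40 on the MIST1-LSL array and 3.79 on the control array, a difference of 1.61 against a control level below the floor. With the control level raised to the floor the difference was 0.78, under 2-fold. No other gene of the 25 glutathione synthesis and recycling genes above the floor was past 2-fold by its deposited levels, and the list median was -0.02. Gss, glutathione synthetase, differed by 0.50 (7.57 on the MIST1-LSL array and 7.07 on the control array) and Ggt7, of the gamma-glutamyltransferase family, by 0.49. The control level of Ggt7, 4.26, was below the floor, and with it raised to the floor Ggt7 differed by 0.13.

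Genes around the other conjugation steps all stayed under 2-fold. The 12 genes of UDP-glucuronate supply and release had a median of -0.02, with 6 above 0 and 6 below. The 3 largest in size were Slc35a3, a Golgi transporter of UDP-N-acetylglucosamine, at -0.35, Uxs1, UDP-xylose synthase, at 0.27 and Hk1, hexokinase, at 0.21. These 3 were named for their size and do not stand for the list. Of the 13 genes of sulfate supply and release, 10 were below 0, with a median of -0.14. Among all 17352 genes above the floor, 9222 were below 0 as deposited, with a median of -0.03, and that count depended on scaling. Suox, sulfite oxidase, read 7.41 on the MIST1-LSL array and 7.76 on the control array, the sulfate transporter gene Slc26a2 differed by -0.24 and Slc13a4, another sulfate transporter gene, by -0.22. The differences of both transporters were near the SD between probe sets of a gene. The 8 conjugate efflux genes had a median of -0.08, with the ABC transporter genes Abcg2 at 0.26 and Abcc3 at -0.24.

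Regulators and other enzymes of the pathway were also mostly close to 0. The 20 regulators above the floor had a median of -0.04 and none was past 2-fold. The intestinal factor gene Cdx2 differed by 0.40. The 19 NRF2 targets outside the transferases had a median of 0.06, and among them only Slc7a11 was past 2-fold, by its deposited levels but not against the floor. Cat, catalase, read 7.57 on the MIST1-LSL array and 8.26 on the control array, a difference of -0.69, and Srxn1, sulfiredoxin, differed by 0.40. Among 24 other drug-metabolising enzymes, the carboxylesterase genes went both ways. Ces1f read 8.69 on the MIST1-LSL array and 7.46 on the control array, and Ces2a read 6.59 on the MIST1-LSL array and 7.78 on the control array. Those were the only genes of that list past 2-fold, at 1.23 and -1.19, and Ces2e differed by 0.67. With its control level of 4.52 raised to the floor, Ces2e differed by 0.57.

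Since several of the transferases are also made in intestine and liver, markers of both tissues were read. Of the 12 listed enterocyte markers, 10 were above the floor, with a median of -0.07 and 6 of 10 below 0. Fabp2 read 10.00 on the MIST1-LSL array and 10.10 on the control array, and Alpi, intestinal alkaline phosphatase, differed by 1.04. Sis and Lct were below the floor on both arrays. Of the 7 listed hepatocyte markers, 4 were above the floor and went both ways, with a median of -0.18. Alb, albumin, read 5.24 on the MIST1-LSL array and 5.08 on the control array, and Ahsg, fetuin-A, differed by 0.59, Ttr, transthyretin, by -0.53 and Cyp2e1, a cytochrome P450, by -0.77. Cyp2e1 was below the floor on the MIST1-LSL array (4.38), and with that level raised to the floor it differed by -0.52. Intestinal transcripts were thus present on both arrays, and their share in the levels of the transferases was not tested.

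**Figure D4:**
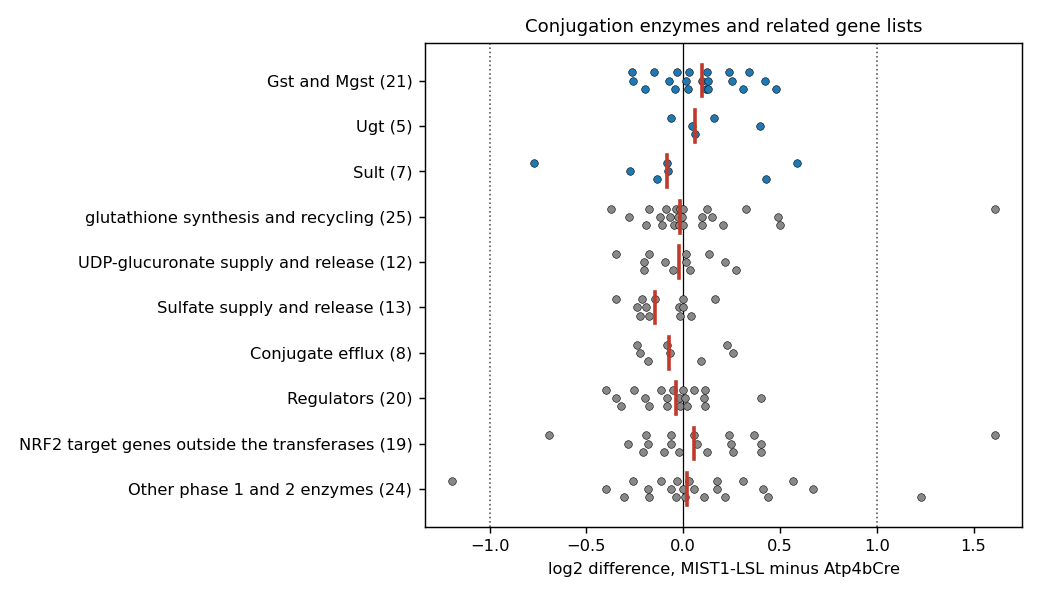
Log2 difference (MIST1-LSL minus Atp4bCre) of each gene above the floor in the Gst and Mgst, Ugt and Sult groups (blue) and in 7 lists of related genes (grey), with the number of genes in brackets, list medians as red bars and dotted lines at a 2-fold difference. All medians lie within 0.15 of 0, and only Slc7a11, whose control level is below the floor, Ces1f and Ces2a lie beyond the dotted lines.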

How the data were processed

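Per the labels' protocols, stomach RNA was amplified and labelled with biotin before hybridisation to Affymetrix arrays. The authors processed the data with RMA and Partek, per the submitters' processing notes; no source used here gives versions or a genome build. The authors' deposited workbook gives the log2 level per probe set, the linear intensity, the ratio between arrays and the probe count per set. The deposited series table holds the same log2 values to within 0.005. RMA's quantile step makes array distributions alike, so a shift shared by most genes could be hidden. The deposited distributions were not identical: the median of all probe sets was 4.60 on the MIST1-LSL array and 4.64 on the control array.

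Members, lists and the naming rule were chosen with earlier results of these data known. Gene symbols are the workbook's. The accessions of 47 of 52 members matched RefSeq (GRCm38.p6), and 5 were not matched. Of 41345 probe sets, 32471 carried a symbol. The floor was the 50th percentile of all probe-set values (4.62) and the size rule a log2 difference of 1. No test was possible with 1 array per genotype. Summed marker levels are sums of linear intensity. The rule named members with a difference of at least 0.5 above the floor, the 4 of each family with the highest mean level and the 3 genes of each list with the largest difference. Some genes that this rule picked are not reported here. The other members and the marker genes were named after their values were seen. Simulated data were used to check the code of the size rule, with differences larger than the rule placed on genes well above the floor. That check says nothing of genes near the floor or of variation between mice. Analyses used Python 3.11.15, numpy 2.4.6, pandas 2.3.3 and matplotlib 3.10.9.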

Additional observations from a re-analysis of the deposited data

How the results depend on the processing

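No paired analysis was possible because each genotype had 1 array. Median centring, quantile normalization, the series table, averaging probe sets and the probe set with the most probes all left 0 members past 2-fold. These settings had little room to change that count. The largest shift of any member was 0.039 under centring and 0.074 under quantile normalization, and 51 of the 52 members had 1 probe set. Both probe-set settings took Sult6b1 below the floor and left 32 members. The floor at the 75th percentile (5.84, 21 members) and a 3-fold rule could only give 0 as well. Without a floor 1 member was 2-fold higher, Ugt2b5. With a 1.5-fold rule 1 member was higher, Sult4a1, and 1 lower, Sult6b1, each against a level below the floor on the other array, and neither passed with that level raised to the floor. Members above 0 numbered 34 of 52 (65.4%) without a floor, against 45.9% of all genes, and 11 of 21 (52.4%) at the higher floor, against 45.7%. The members' median stayed between 0.03 and 0.11 under its 7 alternatives. Over all genes, 358 were higher and 198 lower without a floor, 605 and 577 at 1.5-fold, 67 and 24 at 3-fold, and 42 were lower at the higher floor. These counts move because the setting changes which genes are counted. Sult6b1 came to -0.24 with its probe sets averaged and 0.29 with the one of most probes, and no other member moved by more than the SD between probe sets. Centring turned Gstt3 to 0.0046, and the direction of each family median held under both scalings. The median of all genes above the floor changed sign with centring. It was -0.03 as deposited, 0.01 after median centring and -0.01 after quantile normalization. The absence of detection calls limits what can be said of the 19 members below the floor.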

Other observations

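The deposited levels of Sult1c1 and Ugt2b1 were identical on both arrays to every digit given, as they were for 1476 of 41345 probe sets. A difference of 0.00 for these genes is therefore a property of the summarised values and does not show equal transcript levels.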
